A study of Mus musculus with 20 samples.

Results

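Genes of the oxidative stress and metal responses were followed in mouse liver after dosing with antisense oligonucleotides. The list held 10 genes, chosen by Ensembl identifier, among 22361 genes measured. It comprised Nfe2l2 (ENSMUSG00000015839), which encodes the transcription factor NRF2, and the metallothionein genes Mt1 (ENSMUSG00000031765) and Mt2 (ENSMUSG00000031762). The other 7 are genes known to be switched on by NRF2: Nqo1 (ENSMUSG00000003849), Gclc (ENSMUSG00000032350), Gclm (ENSMUSG00000028124), Gstm1 (ENSMUSG00000058135), Srxn1 (ENSMUSG00000032802), Txnrd1 (ENSMUSG00000020250) and Hmox1 (ENSMUSG00000005413). Each of the 10 had a row in the data. The livers came from 20 female C57BL/6 mice, the growth protocol naming the substrain C57BL/6J, in 5 groups of 4. A control group received saline, and the others received SPC4955, SPC4061 or SPC3847 at 10 mg/kg or SPC3833 at 5 mg/kg, each mouse being dosed into a vein on days 0, 1 and 2 and killed on day 3, although the source label reads 4 days after the first dose. An antisense oligonucleotide is a short synthetic strand of nucleic acid that pairs with an RNA of matching sequence. The compounds are known here by code name only, so no target or chemistry is given.

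NRF2 is held at a low level in unstressed cells by KEAP1, an adaptor that directs it to degradation. Oxidants and electrophiles modify KEAP1, NRF2 then accumulates, and with a small MAF protein it binds antioxidant response elements near genes for glutathione synthesis, thiol repair and detoxification. Metallothioneins are small cysteine-rich proteins that bind zinc and copper. In liver their genes are known to respond to zinc through the factor MTF1, which binds metal response elements, and also to glucocorticoids and inflammatory cytokines.

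RNA was measured on 1-colour Affymetrix arrays, 1 per mouse, and each value is a log2 intensity for 1 gene, so a difference of 1 is a 2-fold change. Probes of different genes differ in brightness at equal RNA, so levels were compared between groups and never between genes. Array medians lay between 6.37 and 6.53, and the quartile range of an array, called its width below, between 2.70 and 3.21. Saline replicate 1, SPC4955 replicate 1 and SPC3847 replicate 4 lay farthest from their groups, with an SD over genes of 0.270, 0.236 and 0.227 around the group mean against 0.101 to 0.169 for the other arrays, and where a call on a listed gene changed without them, both values are given. The number of arrays sets the precision, and signal over background was not analysed here. Liver was taken as a whole, so fewer cells of a type and less RNA per cell cannot be told apart. Hepatocyte, immune and other cell type markers were not analysed here, since no table at hand links their symbols to the identifiers of the arrays, and the tissue label was therefore not checked against its markers.

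Over the 5 groups, 7 of the 10 genes differed (limma moderated F test, Benjamini-Hochberg adjusted p below 0.05 over all genes), where 23.8% of all genes did. The adjusted p was 0.000567 for Srxn1, 0.000634 for Hmox1, 0.000977 for Mt1, 0.00388 for Mt2, 0.00631 for Nfe2l2, 0.00724 for Gclm and 0.0246 for Nqo1. The Nqo1 call was lost with the width of each array as a covariate (adjusted p = 0.0941) and without SPC4061 replicate 3 (0.0627) or 4 (0.0707). Txnrd1 (adjusted p = 0.0525), Gclc (0.107) and Gstm1 (0.314) did not pass. Gclc passed without SPC3847 replicate 4 (0.0470), without the 3 arrays farthest from their groups (0.0192) and with array quality weights (0.0255). The genes did not move as a block. Nfe2l2 and Gclm were called higher than saline with 2 oligonucleotides, Hmox1 and Srxn1 with SPC4955, and Nqo1 with SPC4061, while Mt1 was called lower with SPC3847.

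**Figure D1:**
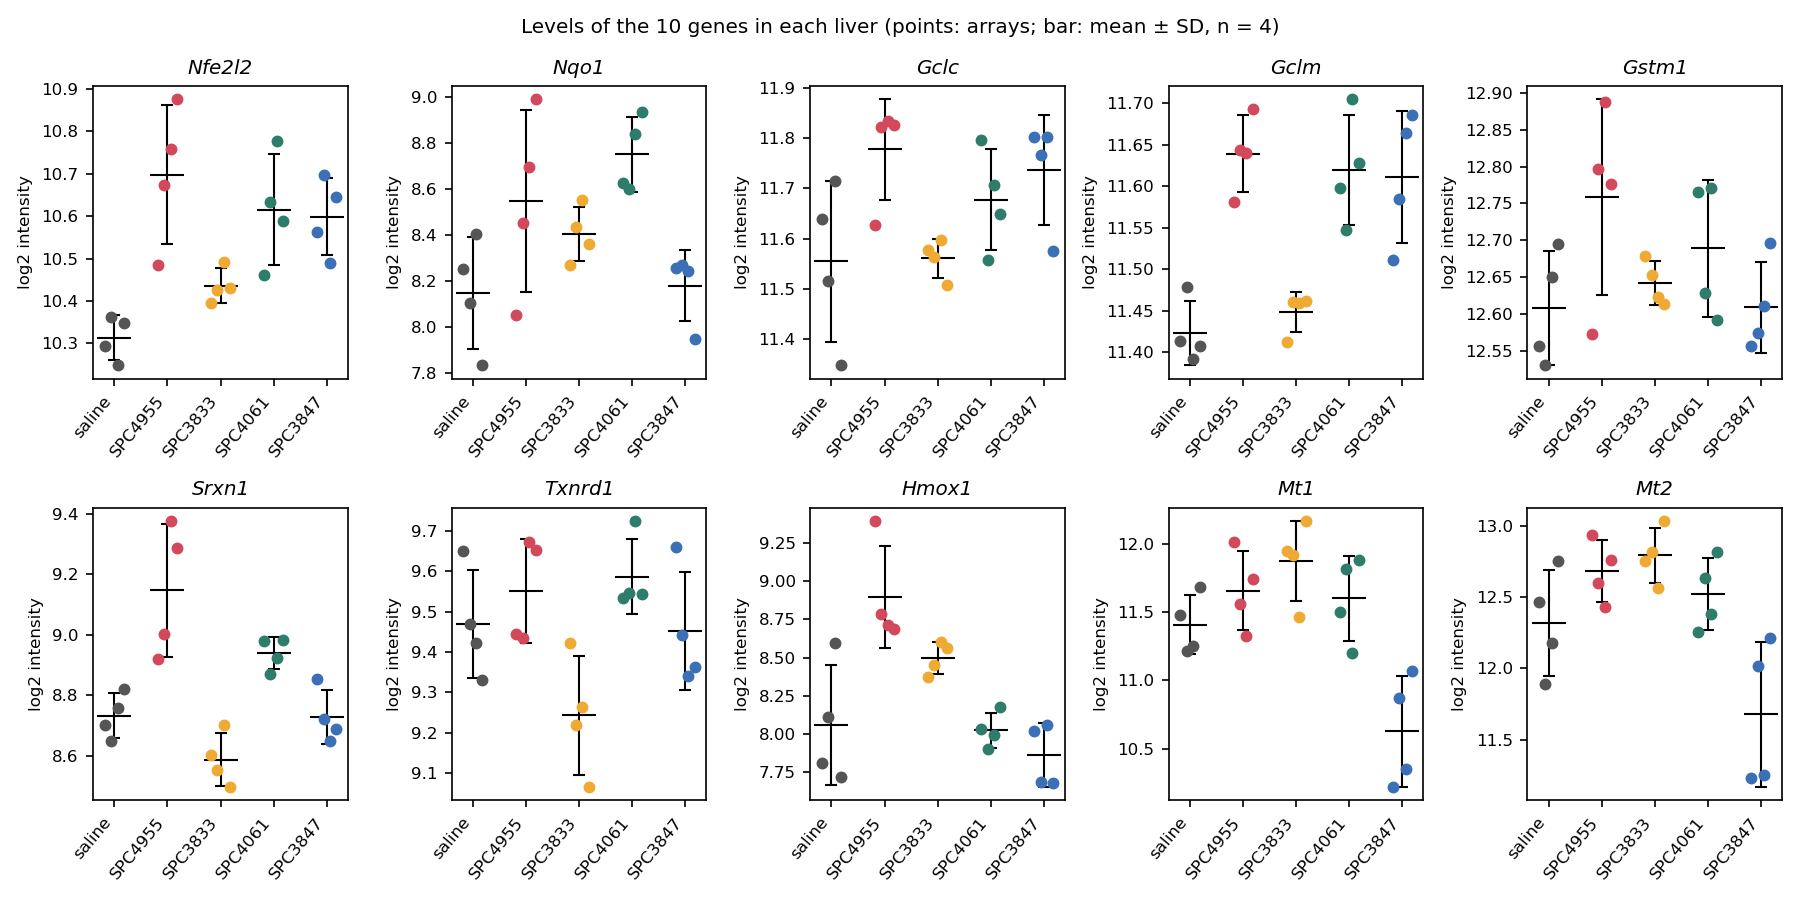
Log2 intensity of each of the 10 genes (vertical axes, a separate scale per gene) in the 5 groups (horizontal axes). Points are single arrays, placed from replicate 1 to 4, and bars give the mean ± SD of 4. The 4 SPC4955 arrays lie above all saline arrays for Nfe2l2, Gclm, Srxn1 and Hmox1, and the 4 SPC4061 arrays for Nfe2l2, Gclm, Srxn1 and Nqo1. The SPC3847 arrays do so for Nfe2l2 and Gclm, and the SPC3833 arrays for Nfe2l2. For Mt1 the 4 SPC3847 arrays lie below all saline arrays. The share of all genes whose arrays separate in this way was not counted.

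Nfe2l2 itself was higher than saline in every treated liver. Its levels with saline were 10.29, 10.36, 10.25 and 10.35 in replicates 1 to 4. They were 10.49, 10.67, 10.76 and 10.88 with SPC4955, 10.46, 10.63, 10.78 and 10.59 with SPC4061, and 10.56, 10.70, 10.49 and 10.65 with SPC3847. With SPC3833, at the lower dose, they were 10.39, 10.43, 10.49 and 10.43. No array of any oligonucleotide overlapped the saline arrays. For this and the later statements on overlap, the share of all genes that separate likewise was not counted. Nfe2l2 rose 1.31-fold with SPC4955 (log2 change 0.38, 95% interval 0.22 to 0.55, limma adjusted p = 0.00454). It rose 1.23-fold with SPC4061 (log2 change 0.30, 95% interval 0.14 to 0.47, limma adjusted p = 0.0162), a call lost without saline replicate 3 (adjusted p = 0.0541) or SPC4061 replicate 3 (adjusted p = 0.0639). With SPC3847 the log2 change was 0.29 (95% interval 0.12 to 0.45), which did not pass over all genes (limma adjusted p = 0.0515, range over the alternatives 0.0243 to 0.147). With SPC3833 it was 0.12 (95% interval -0.04 to 0.29, adjusted p = 0.428). These changes share 1 set of saline arrays, whose SD for Nfe2l2 was 0.05.

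Gclm encodes the modifier subunit of glutamate-cysteine ligase, the enzyme of the first step of glutathione synthesis, and Gclc its catalytic subunit. The Gclm levels were 11.41, 11.48, 11.39 and 11.41 with saline, 11.58, 11.64, 11.64 and 11.69 with SPC4955, and 11.60, 11.55, 11.71 and 11.63 with SPC4061. They were 11.51, 11.58, 11.66 and 11.69 with SPC3847 and 11.41, 11.46, 11.46 and 11.46 with SPC3833. All arrays of the oligonucleotides given at 10 mg/kg lay above the saline arrays, and those of SPC3833 overlapped them. The steps were small: Gclm rose 1.16-fold with SPC4955 (log2 change 0.22, 95% interval 0.10 to 0.33, limma adjusted p = 0.0174) and 1.15-fold with SPC4061 (log2 change 0.20, 95% interval 0.09 to 0.31, limma adjusted p = 0.0209). With SPC3847 the log2 change was 0.19 (95% interval 0.08 to 0.30) and missed the threshold (adjusted p = 0.0587, range over the alternatives 0.0150 to 0.329), and with SPC3833 it was 0.03 (adjusted p = 0.835). Leaving out 1 array ended the SPC4955 call in 2 cases (saline replicate 4, adjusted p = 0.0501, and SPC4955 replicate 4, 0.0546), as did median centring (0.0772) and the fit of only the 8 arrays (0.0924). It ended the SPC4061 call without saline replicate 3 (0.0621), saline replicate 4 (0.0572), SPC4061 replicate 3 (0.0750) or SPC4061 replicate 4 (0.0555), and the fit of only the 8 arrays ended it too (0.0653).

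Gclc spread more among saline livers, from 11.35 to 11.71, than Gclm did, and overlapped saline in every treated group. Its log2 change was 0.22 with SPC4955 (95% interval 0.06 to 0.39, limma adjusted p = 0.112), 0.18 with SPC3847 (0.02 to 0.35, adjusted p = 0.273), 0.12 with SPC4061 (-0.04 to 0.29, adjusted p = 0.355) and 0.01 with SPC3833 (-0.16 to 0.17, adjusted p = 0.975). Without saline replicate 1 and SPC4955 replicate 1 the SPC4955 change was 0.30 (adjusted p = 0.0518), and it passed at the same size when SPC3847 replicate 4 was left out as well (adjusted p = 0.0279). Gstm1, a glutathione transferase that couples glutathione to electrophiles, also overlapped saline throughout. Its group means ran from 12.61 with saline and with SPC3847 to 12.76 with SPC4955, and its largest log2 change was 0.15 with SPC4955 (95% interval 0.01 to 0.29, limma adjusted p = 0.239). Gstm1 has close relatives in the same gene cluster, and whether their RNA reaches its probes was not tested.

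The Gclm promoter is shown because Gclm had the same direction in all arrays at 10 mg/kg and its window holds the antioxidant response element core. It is 300 bases of RefSeq sequence from build GRCm38.p6, chr3:122245307-122245606, plus strand, from 250 bases before to 50 after an annotated start. Capitals mark the core, searched as TGACNNNGC on both strands and found here on the opposite strand at positions -134 to -126 from the start. Of 32851 windows of this length, 12.4% hold the core. It was present in a window of 5 of the 8 listed genes with any window (Nfe2l2, Srxn1, Gclm, Mt2 and Txnrd1), or 5 of their 11 windows. Gclc and Hmox1 had none to search. Such a match is a description of letters and no evidence of binding.
Gclm promoter: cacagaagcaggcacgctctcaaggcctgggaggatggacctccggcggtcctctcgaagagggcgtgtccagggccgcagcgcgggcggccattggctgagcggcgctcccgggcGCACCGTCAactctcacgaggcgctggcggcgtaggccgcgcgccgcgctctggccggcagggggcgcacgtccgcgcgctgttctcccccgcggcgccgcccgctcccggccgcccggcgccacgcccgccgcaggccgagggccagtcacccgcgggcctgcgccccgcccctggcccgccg

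Srxn1 encodes sulfiredoxin, which repairs over-oxidised peroxiredoxins. Its saline levels were 8.70, 8.65, 8.76 and 8.82, and those with SPC4955 ran from 8.92 to 9.38 with a median of 9.14, so that the groups did not overlap. Srxn1 rose 1.33-fold with SPC4955 (log2 change 0.41, 95% interval 0.23 to 0.59, limma adjusted p = 0.00499). The SPC4061 arrays, at 8.98, 8.87, 8.92 and 8.98, were also above saline without overlap, but the log2 change of 0.21 did not pass (95% interval 0.03 to 0.38, adjusted p = 0.135). The SPC3847 arrays, from 8.65 to 8.85, had nearly the same mean as saline (log2 change -0.0046, 95% interval -0.18 to 0.17), and SPC3833 ranged from 8.50 to 8.70 (log2 change -0.15, adjusted p = 0.380).

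Txnrd1, the cytosolic thioredoxin reductase, passed against saline with no oligonucleotide. Its levels ranged from 9.33 to 9.65 with saline, 9.43 to 9.67 with SPC4955, 9.53 to 9.72 with SPC4061, 9.34 to 9.66 with SPC3847 and 9.07 to 9.42 with SPC3833. With SPC3833 the log2 change was -0.22 (95% interval -0.42 to -0.03, limma adjusted p = 0.169). In the test over the 5 groups Txnrd1 passed under 13 of 30 alternatives, with an adjusted p between 0.00656 and 0.211. It passed without saline replicate 1 (0.0377), SPC4955 replicate 1 (0.0481) or SPC3847 replicate 4 (0.0489). The adjusted p was 0.0331 without saline replicate 1 and SPC4955 replicate 1 together, and 0.0265 without all 3.

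Hmox1 encodes haem oxygenase 1, which opens the haem ring and is known to be abundant in liver macrophages as well as inducible in hepatocytes. Saline livers gave 7.81, 8.11, 8.59 and 7.72, and SPC4955 livers gave 9.40, 8.78, 8.72 and 8.69. All SPC4955 arrays were above all saline arrays, although saline replicate 3 and the lowest SPC4955 array were only slightly apart. Hmox1 rose 1.79-fold with SPC4955 (log2 change 0.84, 95% interval 0.49 to 1.19, limma adjusted p = 0.00387). SPC4955 replicate 1 stood above the other 3 arrays of its group. Without it the log2 change was 0.67 (adjusted p = 0.0124), and without it and saline replicate 1 it was 0.59 (adjusted p = 0.0341). With SPC3833 the levels were 8.37, 8.45, 8.60 and 8.57, overlapping saline only through saline replicate 3. The log2 change of 0.44 did not pass (95% interval 0.09 to 0.79, limma adjusted p = 0.139), but without saline replicate 3 it was 0.62 and passed (adjusted p = 0.0175). SPC4061 ranged from 7.90 to 8.17 and SPC3847 from 7.67 to 8.06, with log2 changes of -0.03 and -0.20 (adjusted p = 0.914 and 0.685).

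Nqo1, the NAD(P)H quinone reductase often read as a marker of NRF2 activity, had its highest mean with SPC4061. It was 8.25, 8.10, 8.40 and 7.83 with saline and 8.63, 8.60, 8.84 and 8.93 with SPC4061, without overlap. Nqo1 rose 1.52-fold with SPC4061 (log2 change 0.60, 95% interval 0.28 to 0.92, limma adjusted p = 0.0149). The SPC4061 arrays were the widest on average, with a mean quartile range of 3.14 against 2.97 with saline. With the width of each array as a covariate the log2 change was 0.45 and no longer passed (adjusted p = 0.0802), nor did it without saline replicate 4 (0.0639) or SPC4061 replicate 4 (0.0563). With SPC4955 Nqo1 was 8.05, 8.45, 8.69 and 8.99, a wide spread that overlapped saline through replicate 1. The log2 change of 0.40 did not pass (adjusted p = 0.150), but without SPC4955 replicate 1 it was 0.56 and passed (adjusted p = 0.0175). With saline replicate 1 left out too it was 0.60 (adjusted p = 0.0208), as it was without the 3 arrays farthest from their groups (adjusted p = 0.0127). Nqo1 did not tell SPC4955 from SPC4061 (log2 difference -0.20, 95% interval -0.53 to 0.12, limma adjusted p = 0.523). Without SPC4955 replicate 1 that difference was -0.039 (adjusted p = 0.945). SPC3833 ranged from 8.27 to 8.55 (log2 change 0.26, adjusted p = 0.392) and SPC3847 from 7.95 to 8.27 (log2 change 0.03, adjusted p = 0.964).

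Of the metallothionein genes Mt1 and Mt2, Mt1 fell with SPC3847 and Mt2 did not pass against saline. Mt1 levels were 11.48, 11.22, 11.25 and 11.68 with saline and 10.22, 10.87, 10.36 and 11.07 with SPC3847, with no overlap. The Mt1 fall was 1.72-fold (log2 change -0.78, 95% interval -1.19 to -0.36, limma adjusted p = 0.0342). Mt2 levels were 12.47, 11.89, 12.18 and 12.75 with saline and 11.23, 12.01, 11.25 and 12.21 with SPC3847, where replicates 2 and 4 overlapped saline. The Mt2 log2 change of -0.64 (95% interval -1.08 to -0.20) did not pass (limma adjusted p = 0.110, range over the alternatives 0.0298 to 0.385). It passed without SPC3847 replicate 4 (log2 change -0.82, adjusted p = 0.0315) and without the 3 arrays farthest from their groups (-0.77, adjusted p = 0.0484). The Mt1 call against saline was lost in 7 of 19 alternatives. These were the fit of only the 8 arrays (adjusted p = 0.137), leaving out the 2 arrays that included saline replicate 1 (0.0578), and leaving out saline replicate 1 (0.0744), 3 (0.0574) or 4 (0.105) or SPC3847 replicate 1 (0.103) or 3 (0.114).

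With the other oligonucleotides neither metallothionein passed against saline. Mt1 was 12.01, 11.56, 11.32 and 11.74 with SPC4955, 11.50, 11.81, 11.20 and 11.88 with SPC4061, and 11.94, 11.91, 11.47 and 12.17 with SPC3833. Mt2 was 12.94, 12.60, 12.43 and 12.76 with SPC4955, 12.26, 12.63, 12.38 and 12.82 with SPC4061, and 12.76, 12.82, 12.57 and 13.04 with SPC3833. With SPC3833 the log2 changes were 0.46 for Mt1 (95% interval 0.05 to 0.88, limma adjusted p = 0.191) and 0.47 for Mt2 (0.03 to 0.91, adjusted p = 0.220). All 3 groups overlapped saline for both genes.

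Mt1 and Mt2 lie next to each other on chromosome 8, with 0 other genes between them in RefSeq. Their promoter windows are shown because both genes were lower with SPC3847 than with either other same-dose compound and are known for metal response elements. Capitals mark the metal response element core, searched as TGCACNC or TGCGCNC on both strands. The Mt1 window is chr8:94178839-94179138 and the Mt2 window chr8:94172368-94172667, both on the plus strand of GRCm38.p6, from RefSeq. Mt1 holds the core 3 times, at positions -23, 3 and 21 counted from the annotated start. Mt2 holds it 4 times, at -223, -128, -50 and 5. The core occurs at least 1 time in 25.7% of all windows, at least 3 times in 1.97% and at least 4 times in 0.517%. The Gclm window also holds 3 copies, of which 1, at -138 to -132, overlaps its antioxidant core. At least 1 copy was present in 5 of the 8 listed genes with any window, Srxn1 and Gstm1 among them, or 6 of their 11 windows. The Gstm1 windows overlap and hold the same copy, which is thus counted in each.
Mt1 promoter: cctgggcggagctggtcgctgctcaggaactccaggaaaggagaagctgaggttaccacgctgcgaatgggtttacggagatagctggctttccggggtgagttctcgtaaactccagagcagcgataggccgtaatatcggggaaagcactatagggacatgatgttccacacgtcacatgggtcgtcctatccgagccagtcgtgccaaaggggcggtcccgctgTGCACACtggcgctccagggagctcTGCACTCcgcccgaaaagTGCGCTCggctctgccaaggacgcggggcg
Mt2 promoter: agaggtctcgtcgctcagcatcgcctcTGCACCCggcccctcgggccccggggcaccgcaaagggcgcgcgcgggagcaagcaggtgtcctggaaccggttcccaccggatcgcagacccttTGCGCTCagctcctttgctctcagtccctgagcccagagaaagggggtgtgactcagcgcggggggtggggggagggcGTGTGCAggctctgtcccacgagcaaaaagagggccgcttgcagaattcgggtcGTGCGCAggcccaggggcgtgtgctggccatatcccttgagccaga

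The antioxidant core is absent from these letters of the Mt1 window. Letters beyond the window were not searched, and whether liver RNA begins at the annotated start was not checked. The antioxidant core occurs 1 time in the Mt2 window, as TGACTCAGC at -79 to -71, where it overlaps none of the metal cores.

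Liver by liver, Mt1 and Mt2 moved together. Deviations from the group means correlated at r = 0.906 and rho = 0.901 over 20 arrays (permutation within groups, two-sided, p = 1e-05, the smallest that 100000 resamples can give, adjusted p = 0.00045 for each over 45 pairs of listed genes). Without the 2 arrays farthest from the median of Mt1, r was 0.899. Within the SPC3847 group the arrays fell into a lower pair, replicates 1 and 3, and an upper pair, replicates 2 and 4, for both genes. The arrays split the same way in width, at 3.16 and 3.10 for replicates 1 and 3 against 2.87 and 2.70 for replicates 2 and 4, and in median, at 6.38 and 6.37 against 6.46 and 6.53. Over all 20 arrays, deviations from the group means correlated with array width at r = -0.42 for Mt1 and -0.50 for Mt2, given as a description. The part of array width in the split was not tested. Whether the probes of these similar genes share targets was not tested. Of the 45 pairs, 3 passed by r at an adjusted p below 0.05. The others were Gclc with Mt1 (r = -0.661, p = 0.00182, adjusted p = 0.0381, and r = -0.565 without the 2 farthest arrays) and Nqo1 with Gclc (r = 0.702, p = 0.00254, adjusted p = 0.0381, and r = 0.71 without them). By rank neither of these passed (permutation test, rho = -0.630, p = 0.00479, adjusted p = 0.108 and rho = 0.618, p = 0.0138, adjusted p = 0.180). Deviations of Gclc and Nqo1 correlated with array width at r = 0.41 and 0.47, and the part of width in these pairs was not tested.

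**Figure D2:**
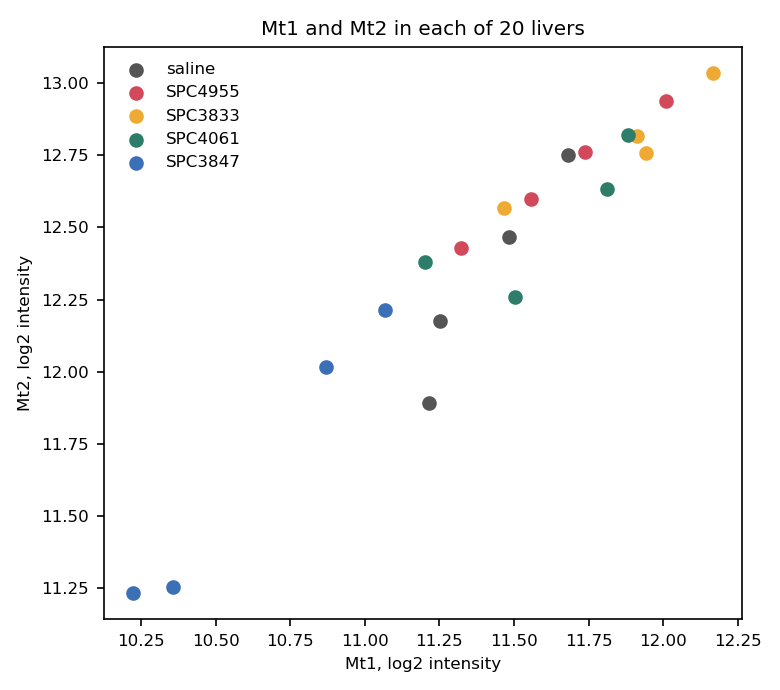
Mt1 (horizontal) against Mt2 (vertical), both as log2 intensity, in each of 20 livers, coloured by group. The 4 SPC3847 livers have the lowest Mt1 levels, 10.22 to 11.07, and 2 of them lie far below all others for both genes.

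With SPC4955, 4 of the 10 genes were called higher and 0 lower (limma adjusted p below 0.05), where 4.22% of all genes were called higher and 2.37% lower. No test of the list as a whole was made, because its genes were chosen with results of these data known. All 10 log2 changes were positive, from 0.08 for Txnrd1 to 0.84 for Hmox1, with a median of 0.30 against 0.01 over all genes. They share 1 set of saline arrays. The share of all genes with a positive change was not counted, here or for the other oligonucleotides. In a fit of only the 8 arrays compared, 1 of the 4 calls was left, that of Nfe2l2 (adjusted p = 0.0494), while Gclm, Srxn1 and Hmox1 had an adjusted p of 0.0924, 0.0753 and 0.0712. The count was 5 without saline replicate 1 and SPC4955 replicate 1, and 6 when SPC3847 replicate 4 was left out as well.

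With SPC4061, 3 genes were called higher and 0 lower, where 8.73% of all genes were called higher and 2.74% lower. The median log2 change of the list was 0.19 against -0.02 over all genes, and 9 of 10 changes were positive. The count was 1 without saline replicate 3, saline replicate 4, SPC4061 replicate 3 or SPC4061 replicate 4.

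With SPC3847, 0 genes were called higher and 1 lower, where 1.84% of all genes were called higher and 1.49% lower. Changes ran from -0.78 for Mt1 to 0.29 for Nfe2l2, with a median of -0.0019 against 0.02 over all genes, 5 being positive and 5 negative. The count of calls in either direction ranged from 0 to 4 over the alternatives, with 0 when only the 8 arrays of that comparison were fitted and 4 with the width of each array as a covariate.

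At 5 mg/kg of SPC3833, limma called 0 genes in either direction, where 3.71% of all genes were called higher and 3.35% lower. At an unadjusted p below 0.05 the listed genes numbered 4 (Txnrd1, Hmox1, Mt1 and Mt2), where 19.3% of all genes were below it. The median log2 change of the list was 0.08 against 0.05 over all genes, with a range from -0.22 for Txnrd1 to 0.47 for Mt2. The dose differed from that of the other compounds, so no difference between SPC3833 and another oligonucleotide was tested.

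**Figure D3:**
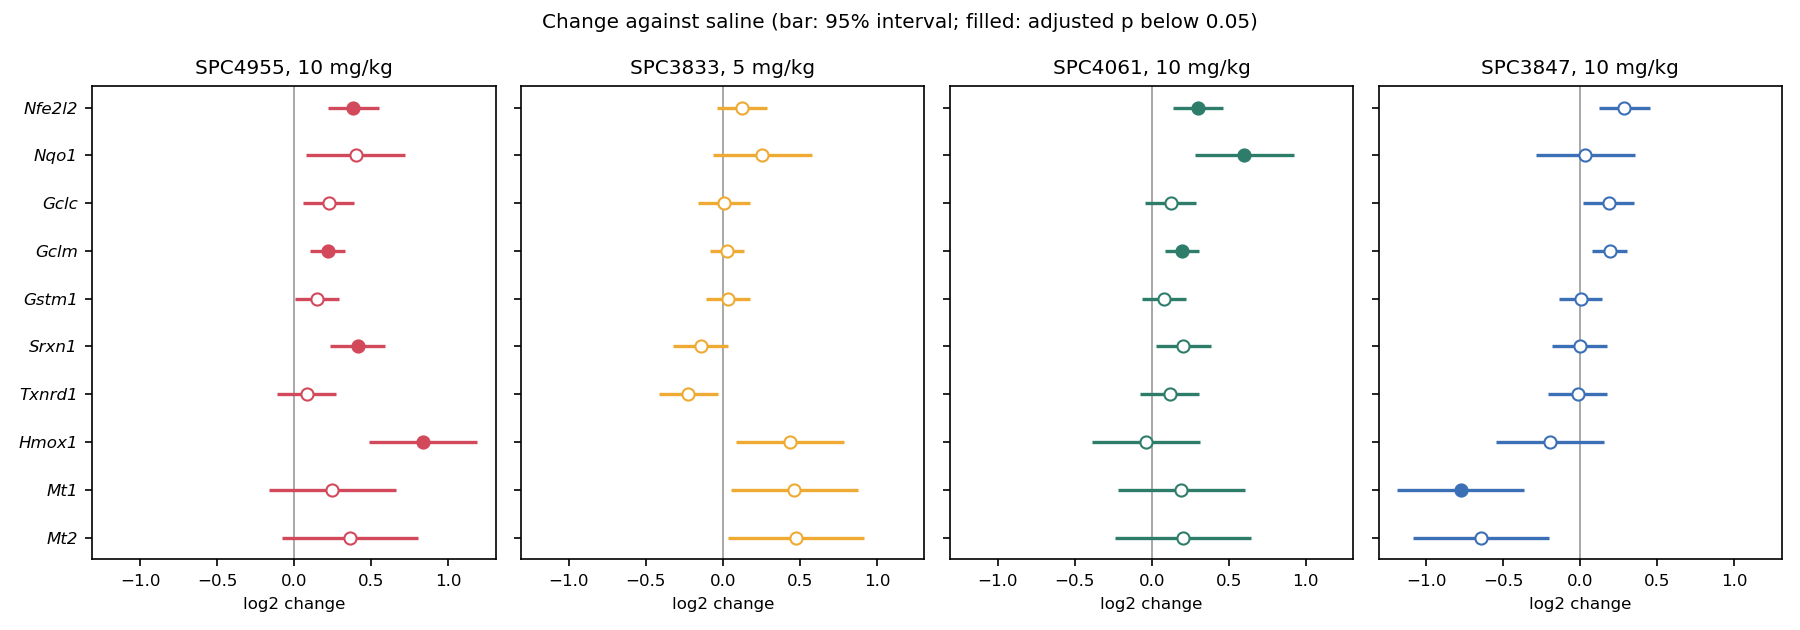
Log2 change against saline (horizontal axes) of each gene with each oligonucleotide. Bars are 95% intervals of the limma fit for a single gene, and filled points had an adjusted p below 0.05. From left to right, filled points number 4, 0, 3 and 1.

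Direct comparisons of the compounds given at 10 mg/kg used no saline array in the difference and made 3 pairs, with p-values adjusted over all genes of a pair. The pair SPC4955 and SPC3847 differed in 4 genes, all higher with SPC4955, where 4.70% of all genes were called higher and 2.85% lower. Hmox1 was 2.05-fold higher (log2 difference 1.04, 95% interval 0.69 to 1.39, limma adjusted p = 0.000461), Mt1 2.04-fold (1.03, 0.61 to 1.44, adjusted p = 0.00246), Mt2 2.00-fold (1.00, 0.56 to 1.44, adjusted p = 0.00500) and Srxn1 1.34-fold (0.42, 0.24 to 0.60, adjusted p = 0.00402). No SPC4955 array overlapped an SPC3847 array for these genes, a separation not counted over all genes. Hmox1, Mt1 and Mt2 passed under all 19 alternatives of this pair, and Srxn1 under 18, missing in the fit of only the 8 arrays (adjusted p = 0.0867). Nqo1, at 0.37 (adjusted p = 0.180), passed without SPC4955 replicate 1 (0.53, adjusted p = 0.0256) but not when saline replicate 1 and SPC3847 replicate 4 were left out too (0.45, adjusted p = 0.0696). Gstm1, at 0.15 (adjusted p = 0.223), passed without those 3 arrays (0.24, adjusted p = 0.0435).

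SPC4061 and SPC3847 differed in 3 genes, all higher with SPC4061, where 4.76% of all genes were called higher and 1.98% lower. Mt1 was 1.96-fold higher (log2 difference 0.97, 95% interval 0.56 to 1.38, limma adjusted p = 0.00462), Mt2 1.79-fold (0.84, 0.40 to 1.28, adjusted p = 0.0191) and Nqo1 1.48-fold (0.57, 0.25 to 0.89, adjusted p = 0.0303). The lower Mt1 with SPC3847 was thus found against each same-dose compound, and against SPC4061 it passed under all 19 alternatives. These differences share the same 4 SPC3847 arrays and are not independent of each other. The Mt2 call was lost without SPC4061 replicate 2 (adjusted p = 0.0582), SPC4061 replicate 4 (0.0734) or SPC3847 replicate 3 (0.0556) and in the fit of only the 8 arrays (0.0718). The Nqo1 call was lost with the width of each array as a covariate (0.157), after quantile normalization (0.0518), and without SPC4061 replicate 3 (0.0776) or 4 (0.0996) or SPC3847 replicate 2 (0.0534) or 4 (0.107).

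SPC4955 and SPC4061 differed in 1 gene, where 3.58% of all genes were called higher and 5.17% lower with SPC4955. Hmox1 was 1.83-fold higher with SPC4955 (log2 difference 0.87, 95% interval 0.52 to 1.22, limma adjusted p = 0.00176), and it passed under all 19 alternatives. Without SPC4955 replicate 1 its difference was 0.71 (adjusted p = 0.00662), and Srxn1 then passed as well (0.28, adjusted p = 0.0452, against 0.21 and 0.157 with that array). Mt1 and Mt2 differed by 0.06 (95% interval -0.36 to 0.47) and 0.16 (-0.28 to 0.60), and these intervals leave room for differences of either sign.

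No pair of same-dose compounds was told apart by Nfe2l2, Gclm or Gclc. For Nfe2l2 the log2 differences were 0.08 (95% interval -0.08 to 0.25) between SPC4955 and SPC4061, 0.10 (-0.06 to 0.26) between SPC4955 and SPC3847 and 0.02 (-0.15 to 0.18) between SPC4061 and SPC3847. For Gclm the 3 differences were 0.02 (-0.09 to 0.13), 0.03 (-0.08 to 0.14) and 0.01 (-0.10 to 0.12). The Gclm intervals thus reach no further than 0.14 in either direction. A p that misses the threshold does not show that the compounds act alike on these genes. Hmox1 was the gene of the list that separated SPC4955 from each other same-dose compound, and Mt1 and Mt2 separated SPC3847 from each.

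**Figure D4:**
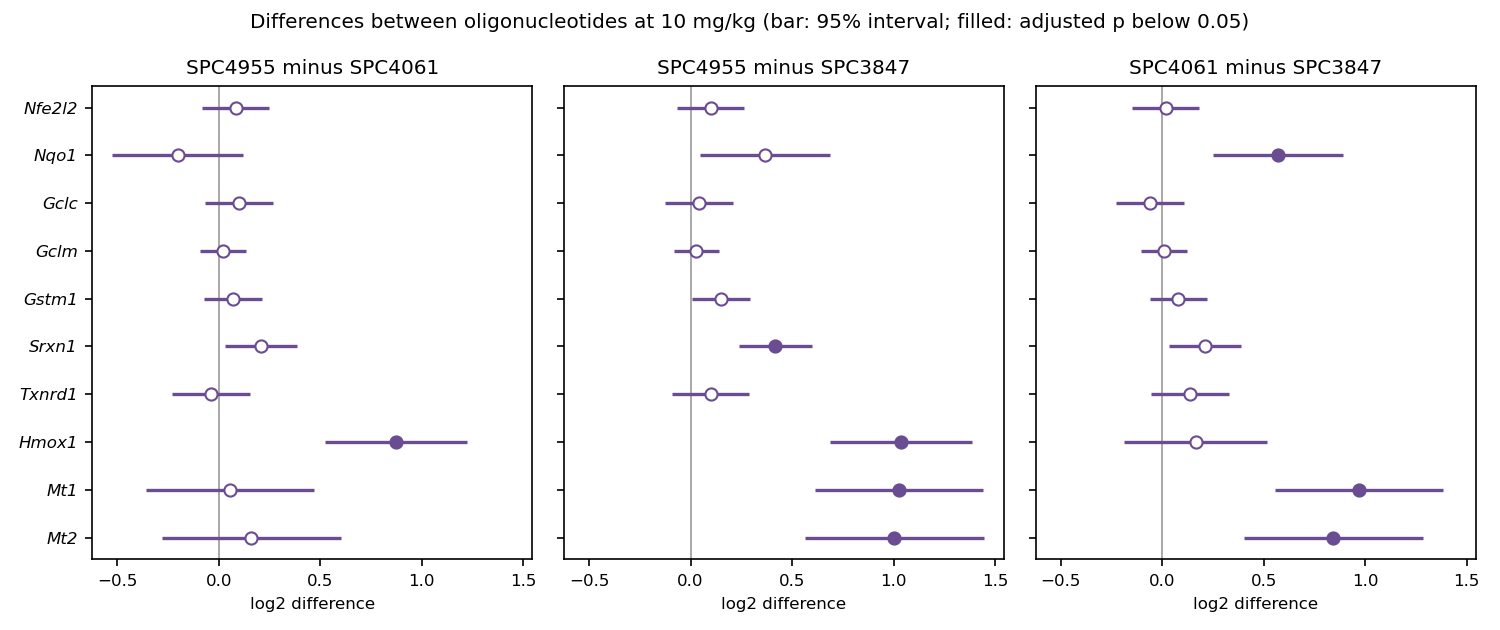
Log2 difference (horizontal axes) between each pair of the oligonucleotides given at 10 mg/kg, for each gene. Bars are 95% intervals of the limma fit and filled points had an adjusted p below 0.05. Filled points number 1, 4 and 3 from left to right, all to the right of 0.

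Across the 20 arrays, the listed gene most like Nfe2l2 in its pattern was Gclm (Pearson r = 0.841), and 1 gene outside the list was more like Nfe2l2 than that. For Mt1 and Mt2 the most alike of all 22361 genes was the other metallothionein (r = 0.964). The other 8 genes, Nfe2l2 included, each had a nearer pattern outside the list than in it. The number of outside genes nearer than the closest listed gene was 3 for Gclm, 66 for Gstm1, 163 for Srxn1, 364 for Gclc and 481 for Txnrd1. For Hmox1 the nearest was ENSMUSG00000031207 (r = 0.949), with 1997 outside genes nearer than its closest listed gene, Mt1 (r = 0.430). For Nqo1 it was ENSMUSG00000032202 (r = 0.910), with 1413 outside genes nearer than Srxn1 (r = 0.566). These correlations describe likeness over arrays that share groups and array width, and carry no test.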

How the data were processed

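Per the labels' protocols, total RNA from the liver of each of 20 mice was amplified as sense-strand target, tagged with biotin and hybridised to a 1-colour Affymetrix whole-transcript array. The authors deposited log2 intensities with 1 value per Ensembl gene identifier and array, as the values show. The affy package is named in the submitters' processing notes. How background was corrected, arrays normalized and probes assigned is not given in the sources used here. These steps can shift dim and bright genes differently, since array widths differed.

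The listed genes were found by identifier, and their symbols came with the list. The members, the gene lists and the tests were chosen with earlier results of these data known. All 10 members were named. Lists of other NRF2 targets, regulators, metal handling genes, glucocorticoid and cytokine genes and cell type markers had been planned, but were not analysed here, because 0 entries of the RefSeq gene table at hand (GRCm38.p6) carry an Ensembl identifier. For the same reason the rule of naming the most alike gene was limited to 2 identifiers.

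One mean per group was estimated in a linear model of all 22361 genes over 20 arrays by limma 3.58.1 (R 4.3.3; functions lmFit, contrasts.fit and eBayes, default prior, 15 residual degrees of freedom), with no filter and no further normalization. Each oligonucleotide was compared with saline, and the 3 given at 10 mg/kg with each other. Benjamini-Hochberg adjustment ran across all genes within each comparison, and an adjusted p below 0.05 was a call. Intervals of 95% are for single genes. The p-values cover the spread between mice of 1 experiment. Data were simulated with 22361 genes drawn independently with normal spread, of which few were changed, in 1 group at a time. Changes of 0.25 (log2) against saline were recovered in 16.4% with SPC4955, 13.4% with SPC4061, 10.45% with SPC3847 and 4.48% with SPC3833. Changes of 0.5 were recovered in 65.7%, 76.1%, 67.2% and 73.1% in the same order. Each share rests on 67 changed genes, so its differences between compounds are no property of the compounds. False calls made up 6.35%, 3.125%, 5.74% and 10.69% of all calls. Misses at the size of most changes here were frequent in this setting. More genes were called in the data, which loosens the threshold, so the shares are not those of the data.

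The sample titles number the replicates without naming a pairing, and none was used in the main fit. Same-numbered arrays of 2 groups had correlations of deviations between -0.496 and 0.517 (median -0.028), and 9 of 40 exceeded 0.1. These values show no steady pairing but cannot establish that there was none. The alternatives tried were leaving out arrays, array width as a covariate, the replicate block, a trended and robust prior, quality weights per array, fitting only the 8 arrays of a comparison, dropping dim rows, quantile normalization and median centring. Promoter windows are RefSeq sequence, and 8 of the 10 genes matched.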

Additional observations from a re-analysis of the deposited data

Results flagged for a closer look

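In 6 of the 50 sets of 4 arrays examined (10 genes in 5 groups), 1 array lay far from the other 3 by Dixon's criterion for 4 values. Chance alone flags about 1 in 20 such sets. Hmox1 was high in SPC4955 replicate 1, at 9.40, and Gclc was low there, at 11.63. SPC3847 replicate 4 was low for Nqo1, at 7.95, and for Gclc, at 11.58. These are 2 of the 3 arrays that stood farthest from their groups over all genes. Gclm was low in SPC3833 replicate 1, at 11.41, within a group whose SD was only 0.02. Txnrd1 was high in SPC4061 replicate 3, at 9.72.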

How the results depend on the processing

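Of 23 called results for single genes, 12 kept their call under all alternatives run. The 7 calls over the 5 groups carry no sign, and none of the other called results turned sign. The filters on dim rows, the trended prior, the replicate block and the fit of the 8 arrays leave a log2 change as it was. No sign could turn there. Over 80 gene results and 1630 recomputed values, 1503 kept direction and side of the threshold, 37 lost a call, 42 gained one and 48 turned sign, none of the last among called results. With SPC3847 against saline the number of genes called moved from 1 to 3 after quantile normalization, with either filter on dim rows and with the trended prior, to 2 with array quality weights and without the 3 arrays farthest from their groups, to 4 with the width covariate, and to 0 in the fit of the 8 arrays and without saline replicate 1 and SPC4955 replicate 1. With SPC4955 against saline it moved from 4 to 1 in the fit of the 8 arrays, to 5 without those 2 arrays and to 6 without the 3, and between SPC4955 and SPC4061 from 1 to 2 without those 2 or 3 arrays. The cause was not tested. Leaving out 1 array gave 3 to 5 genes for SPC4955 against saline, 0 to 1 for SPC3833, 1 to 3 for SPC4061 and 0 to 2 for SPC3847. It gave 1 to 2 for SPC4955 against SPC4061, 4 to 5 for SPC4955 against SPC3847, 1 to 3 for SPC4061 against SPC3847, and 6 to 9 over the 5 groups. The replicate block left these counts at 4, 0, 3 and 1 against saline, 1, 4 and 3 between compounds and 7 over the groups, and 2 of 20 arrays correlated best with their own number.

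Signs turned only for uncalled differences near 0. Median centring gave -0.026 for Gclc and -0.0071 for Gclm with SPC3833, 0.0068 for Hmox1 with SPC4061, 0.0025 for Srxn1 with SPC3847 and -0.032 for Gclm between SPC4955 and SPC4061. Quantile normalization gave 0.0014 for Txnrd1 between SPC4955 and SPC4061, and -0.043 for Gclm and -0.047 for Nfe2l2 between SPC4061 and SPC3847. Array quality weights gave 0.020 for Txnrd1 and -0.031 for Gstm1 with SPC3847, and -0.084 for Mt1 between SPC4955 and SPC4061. The width covariate gave -0.0010 for Gstm1 with SPC3847, and 0.015 for Txnrd1 and -0.029 for Mt1 between SPC4955 and SPC4061. Without the 2 outlying arrays Txnrd1 was 0.044 and Gstm1 -0.016 with SPC3847, and without the 3 they were 0.073 and -0.045, while Mt1 between SPC4955 and SPC4061 was -0.060 in each case. Leaving out 1 array gave, against saline, -0.062 to 0.060 for Gclc with SPC3833 and -0.15 to 0.14 for Hmox1 with SPC4061. With SPC3847 it gave -0.073 to 0.12 for Nqo1, -0.046 to 0.025 for Srxn1, -0.086 to 0.044 for Txnrd1 and -0.028 to 0.030 for Gstm1. Between SPC4955 and SPC4061 it gave -0.0044 to 0.048 for Gclm, -0.077 to 0.0093 for Txnrd1 and -0.075 to 0.17 for Mt1. Between SPC4955 and SPC3847 it gave -0.013 to 0.091 for Gclc and -0.0053 to 0.053 for Gclm, and between SPC4061 and SPC3847 -0.025 to 0.033 for Gclm and -0.037 to 0.069 for Nfe2l2.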
